A study of Mus musculus with 6 samples.

Results

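The transcripts described here are those of the cyclins, the cyclin-dependent kinases (Cdk) and the Cdk inhibitors in the mouse aorta. Members were all genes whose symbol in the deposited files began with Ccn, a letter and a digit, with Cdk and a digit, or with Cdkn, which gave 57 of 29752 genes. Of these, 15 were cyclins, 19 were kinases, 8 were inhibitors and 15 were other symbols that the pattern takes in, such as activators, associated proteins and pseudogenes. Cyclins named by a letter alone, such as Ccnc and Ccnh, fall outside the pattern and were counted in a separate list. RNA had been sequenced from aortas of C57BL/6 mice at 15 weeks of age, which had been on normal diet since week 8, for 7 weeks. The groups were 3 libraries from mice heterozygous for Palmd (genotype PALMD+/-) and 3 libraries from wild-type mice. Palmd is the gene of palmdelphin, which belongs to the paralemmins. Which part of the gene was altered is not stated in the labels. They do not say either that the libraries are from different animals, so p-values measure the spread between these libraries.

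Cyclins bind and switch on Cdks. D cyclins with Cdk4 and Cdk6, and E cyclins with Cdk2, drive entry into DNA synthesis by phosphorylating the retinoblastoma protein, while A and B cyclins with Cdk2 and Cdk1 act in DNA synthesis and mitosis. INK4 inhibitors bind Cdk4 and Cdk6, and CIP/KIP inhibitors bind several cyclin-Cdk pairs. A further group of cyclins and Cdks acts on RNA polymerase II and on splicing. Smooth muscle cells of the healthy adult aorta are known to divide rarely.

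Values are FPKM, in which reads are divided by the length of the gene and the size of the library, so that levels can be set side by side between genes. Between 17283947 and 18372129 reads lay behind a library. Sets of 3 values are those of replicates 1, 2 and 3. Palmd itself was at 5.31, 7.19 and 6.21 FPKM in heterozygotes and at 5.49, 7.88 and 10.1 FPKM in wild type, with overlapping groups. Heterozygote replicate 2 stood apart. Its mean correlation with the other libraries was 0.930, against 0.960 to 0.971 for the rest. It had the highest summed level of the 10 white adipocyte markers (6530 FPKM, against 1914 to 5541 FPKM in the other libraries) and the lowest of the 8 smooth muscle and the 8 endothelial markers (4798 and 284 FPKM, with wild-type libraries at 7157 to 10091 and 809 to 879 FPKM). None of these markers was at 0 in any library, although the smooth muscle gene Tagln was at 2.12 to 4.16 FPKM in heterozygotes and at 3.02 to 4.29 FPKM in wild type, where Myh11 was at 612 to 1166 FPKM in heterozygotes and at 624 to 974 FPKM in wild type. For 14 marker lists of vascular and other cell types, 0 had summed levels that separated the genotypes. Heterozygote replicate 2 was the highest or the lowest library for 18 of the 39 members tested (46.2%), against 60.7% of all genes tested, and heterozygote replicate 1 for 19 (48.7%), against 37.0% of all genes tested.

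No member was called as different between the genotypes. With limma on log2(FPKM + 1), 39 members had at least 1 FPKM in at least 3 libraries and were tested among 12620 genes. Of these 39, 0 had a Benjamini-Hochberg adjusted p under 0.05, and 0.0% of all genes tested did. An unadjusted p under 0.05 was found for 4 members (10.3%), 2 higher (Cdk2 and Cdk5rap3) and 2 lower (Cdkn1a and Cdkn1c) in heterozygotes (5.13% each), where 6.5% of all genes tested passed, 4.06% on the higher and 2.44% on the lower side. The 3 heterozygote values lay all above or all below the 3 wild-type values for 6 members (15.4%), against 12.9% of all genes. Of these, 2 were higher (5.13%) and 4 lower (10.3%), where the shares over all genes were 7.8% and 5.12%. The median log2 fold change was 0.0060 over the members and 0.01 over all genes tested. With limma voom on reads recovered from the values, 0 members were called and 4 had an unadjusted p under 0.05.

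**Figure D1:**
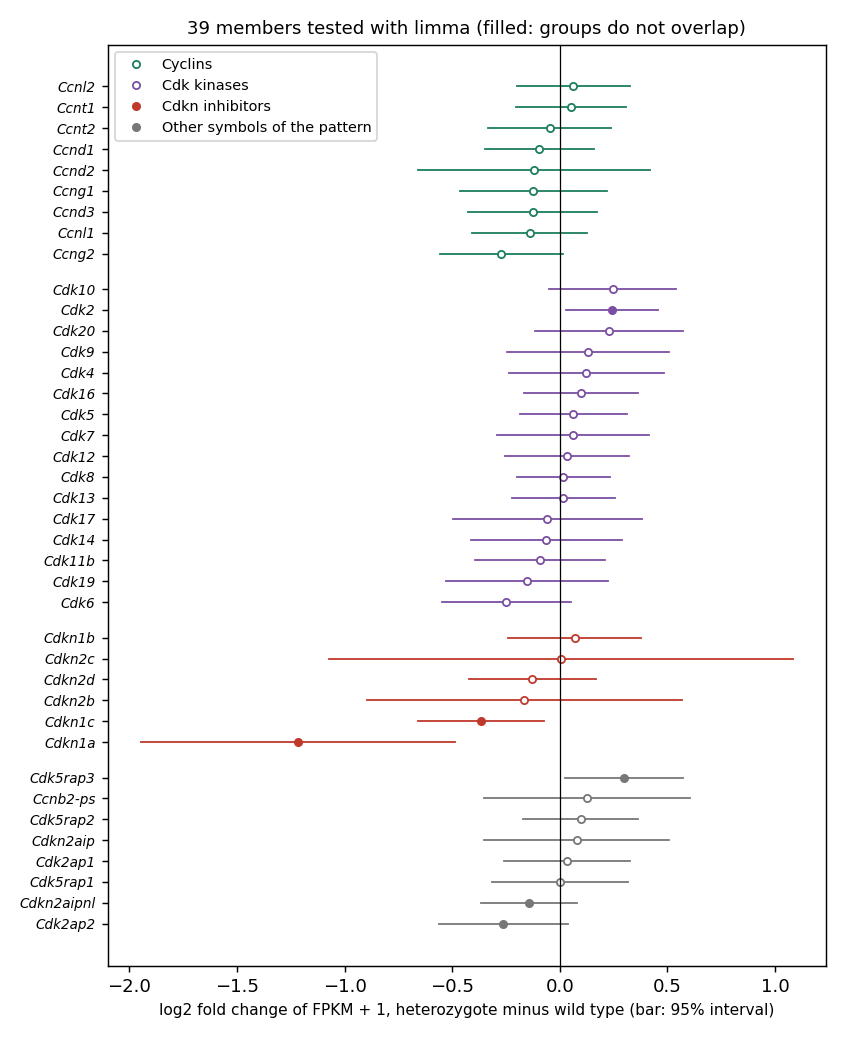
Log2 fold change of FPKM + 1, heterozygote minus wild type, with its 95% interval (limma) for the 39 members tested, by role, with filled points where the groups did not overlap. Cdkn1a, at -1.22, lies apart from the other members, which lie between -0.37 and 0.30.

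Most members differed little between any libraries. Over the 6 libraries the highest value was within 1.5 times the lowest for 26 of the 39 members (66.7%), against 47.5% of all genes tested, and within 2 times for 35. The 4 members with a wider range were Cdkn2c, Cdkn1a, Cdkn2b and the pseudogene Ccnb2-ps. Cdkn1a was the member with a log2 fold change beyond 0.5 in size, which 5.55% of all genes tested passed. In whole aorta, fewer cells of a type and less RNA per cell cannot be told apart.

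Of the inhibitors, the CIP/KIP gene Cdkn1a had the widest difference between the groups. It encodes an inhibitor of cyclin-Cdk complexes that p53 induces and that also binds the replication clamp PCNA. Cdkn1a (ENSMUSG00000023067) lies on chromosome 17 between 29090976 and 29100727 in GRCm38. Its level was 31.5, 29.6 and 59.7 FPKM in heterozygotes and 70.4, 97.3 and 107 FPKM in wild type. Every heterozygote library was below every wild-type library, and heterozygote replicate 3 lay closest to wild type. The means were 40.3 ± 16.8 FPKM in heterozygotes and 91.7 ± 19.1 FPKM in wild type (SD, n = 3 each), a ratio of 43.9%. On the log2 scale the difference was -1.22, with an SE of 0.30 and a 95% interval of -1.95 to -0.49, which 28 of the 12620 genes tested reached or passed on the lower side. It did not pass the threshold over all genes (limma adjusted p = 0.576). A two-sided exact permutation test gave p = 0.1, below which 3 libraries against 3 cannot go. Leaving out heterozygote replicate 2 gave -1.04, and all 14 alternative settings gave between -1.53 and -0.83. Cdkn1a was the most abundant inhibitor in every library. Its exons share 7.68% of their bases with the antisense gene AC167363.2, and those of Cdkn1c share 30.7% with the antisense gene Gm44732, which was listed at 0.

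RefSeq (GRCm38.p6) lists a pair of transcript starts for Cdkn1a. Both are printed from 250 bases before to 50 bases after the start, because this is the member with the widest difference. Capitals in this and the later promoters mark letters of TTTGAA (the CHR element of cell cycle genes), CCAAT (the CCAAT box), TTCCCGC (an E2F site), CACGTG (an E-box), AGGTCA (the core of nuclear receptor sites) or TTATGNAA (a D-box), searched on both strands. Neither window of Cdkn1a held any of them. A p53 site was not among the letters searched, so the windows cannot be read as free of one.
Cdkn1a upstream start, chr17:29090729-29091028, plus strand: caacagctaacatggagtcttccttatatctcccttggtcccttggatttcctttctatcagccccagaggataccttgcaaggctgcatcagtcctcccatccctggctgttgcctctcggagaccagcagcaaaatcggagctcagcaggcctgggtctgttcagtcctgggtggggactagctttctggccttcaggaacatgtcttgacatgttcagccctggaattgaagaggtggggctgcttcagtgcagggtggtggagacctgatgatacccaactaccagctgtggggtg
Cdkn1a downstream start, chr17:29093519-29093818, plus strand: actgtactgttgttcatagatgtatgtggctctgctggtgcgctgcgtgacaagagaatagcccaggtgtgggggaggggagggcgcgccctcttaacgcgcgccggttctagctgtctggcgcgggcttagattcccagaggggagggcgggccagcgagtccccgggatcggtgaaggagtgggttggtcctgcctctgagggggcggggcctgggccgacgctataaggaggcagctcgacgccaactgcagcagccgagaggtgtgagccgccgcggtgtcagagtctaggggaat

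The gene beside Cdkn1a in the CIP/KIP family that also had separate groups was Cdkn1c, an imprinted growth inhibitor expressed from the maternal allele. Cdkn1c (chromosome 7, 143458339 to 143461050) was at 5.24, 5.36 and 4.27 FPKM in heterozygotes and at 6.17, 7.55 and 6.29 FPKM in wild type. All heterozygote values were lower, with a mean of 4.96 ± 0.598 FPKM against 6.67 ± 0.766 FPKM in wild type (SD, n = 3 each). The log2 fold change was -0.37 (SE 0.12, and limma adjusted p = 0.682, exact permutation p = 0.1). With array quality weights, which gave heterozygote replicate 2 a weight of 0.170 and heterozygote replicate 3 one of 3.59, it was -0.56 and passed (limma adjusted p = 0.0483), and with the 13 other settings it did not. How many of all genes passed with these weights is not given here, so this call cannot be read as particular to Cdkn1c. The third member, Cdkn1b, which restrains cyclin E-Cdk2 in resting cells, was at 17.9, 15.2 and 15.6 FPKM in heterozygotes and at 17.5, 15.3 and 13.5 FPKM in wild type. Its groups overlapped, and its 95% interval ran from -0.24 to 0.38 on the log2 scale. Summed over the family, the level was 61.5 ± 15.8 FPKM in heterozygotes and 113.8 ± 17.5 FPKM in wild type (SD, n = 3 each). Cdkn1a made up 57.6%, 59.1% and 75.0% of that sum in heterozygotes and 74.8%, 81.0% and 84.4% in wild type, with an overlap between heterozygote replicate 3 and wild type replicate 1.

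**Figure D2:**
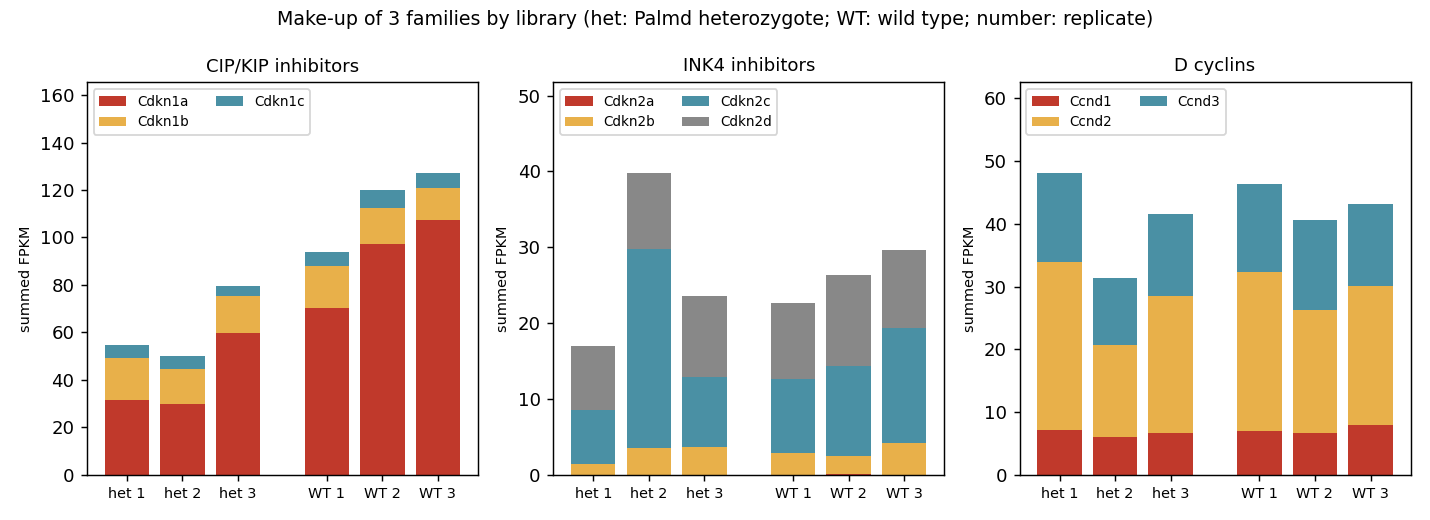
Summed FPKM of the CIP/KIP inhibitors, the INK4 inhibitors and the D cyclins in each library, split by gene. The CIP/KIP sum lies between 50.2 and 79.6 FPKM in the heterozygotes and between 94.1 and 127 FPKM in wild type, and Cdkn1a makes up most of it.

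No p53 pathway gene outside the member rule passed, and 0 of all 12620 genes tested did. Of 22 genes listed, 19 were tested and 0 had an unadjusted p under 0.05, against 6.5% of all genes tested. Their log2 fold changes were positive for 9 and negative for 10, with a median of -0.06. Trp53 itself was at 12.8 ± 2.55 FPKM in heterozygotes and 11.2 ± 1.34 FPKM in wild type, and its ubiquitin ligase Mdm2 was at 9.57 ± 1.74 FPKM in heterozygotes and 9.23 ± 1.03 FPKM in wild type (SD, n = 3 each). The antiproliferative gene Btg2 had the smallest p of the list, at 43.9, 24.7 and 51.9 FPKM in heterozygotes and at 87.2, 80.7 and 42.3 FPKM in wild type, with overlapping groups (log2 fold change -0.79, limma adjusted p = 0.795). Bbc3 and Gdf15, which encode a cell death activator and a stress cytokine, had log2 fold changes of -0.30 and -0.49. Gdf15 had separate groups, at 0.858, 0.156 and 1.27 FPKM in heterozygotes and at 1.45, 1.41 and 1.29 FPKM in wild type (limma adjusted p = 0.810). The cyclin Ccng1, also a p53 target, is given below. A clock gene was looked at beside Cdkn1a after its values were seen. Nr1d1, the repressor REV-ERB alpha, was at 87.7, 82.1 and 33.9 FPKM in heterozygotes and at 5.07, 5.93 and 7.58 FPKM in wild type, so that its level separated the groups in the opposite direction to Cdkn1a. It did not pass the threshold either (log2 fold change 3.16, limma adjusted p = 0.231). Heterozygote replicate 3 was the closest to wild type for both genes. The part of the clock in the Cdkn1a difference was not tested.

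**Figure D3:**
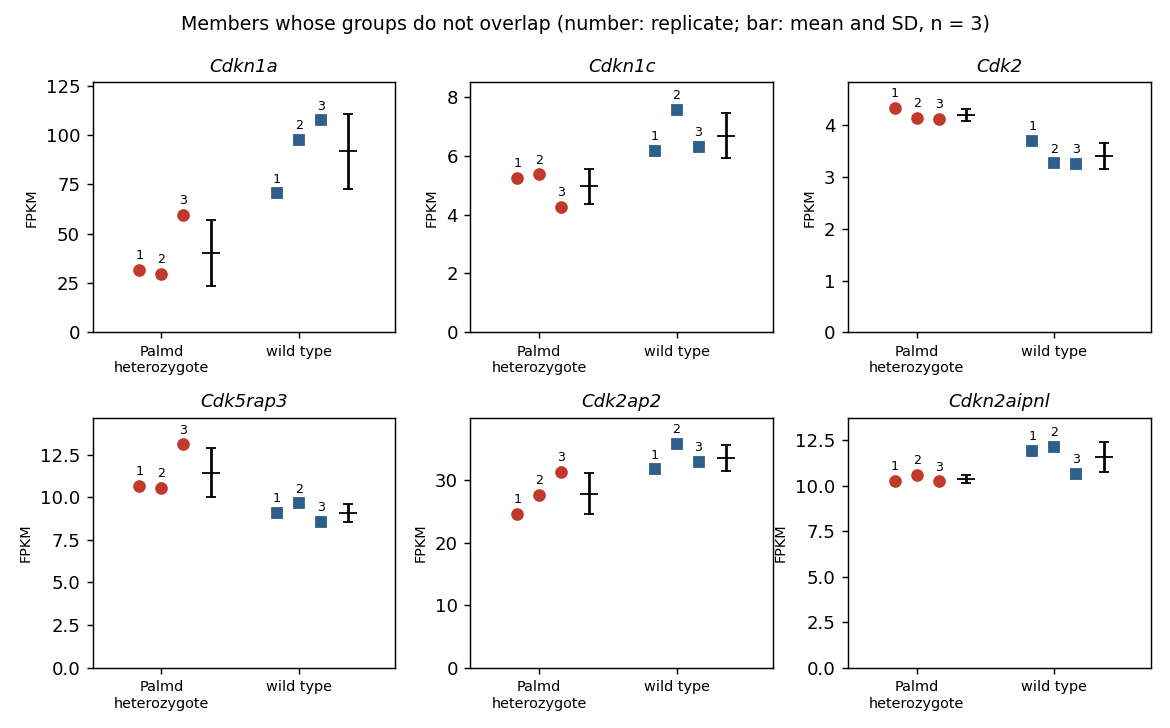
FPKM in each library for the 6 tested members whose groups did not overlap, with replicate numbers and the mean and SD (n = 3). Cdkn1a, Cdkn1c, Cdk2ap2 and Cdkn2aipnl are lower in every heterozygote library than in any wild-type library, and Cdk2 and Cdk5rap3 are higher.

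The INK4 inhibitors varied between libraries more than between genotypes. Cdkn2c, which binds Cdk4 and Cdk6, was at 7.12, 26.2 and 9.28 FPKM in heterozygotes and at 9.82, 11.8 and 15.2 FPKM in wild type. Heterozygote replicate 2 was above all other libraries and the remaining heterozygotes were below all wild-type libraries. The log2 fold change was 0.0060 with all libraries and -0.52 without heterozygote replicate 2 (SE 0.45 with all libraries, limma adjusted p = 0.9998 and 0.330 without that library). The white adipocyte markers summed to 1914, 6530 and 2640 FPKM in heterozygotes and 2340, 3566 and 5541 FPKM in wild type, which is the same order of the 6 libraries as for Cdkn2c except that heterozygote replicate 3 and wild type replicate 1 changed places. With the mean log2 level of these markers as a covariate, the Cdkn2c log2 fold change was 0.19 (limma adjusted p = 0.394). The summed neuron markers, given below, were also highest in heterozygote replicate 2 (457 FPKM) and next in wild type replicate 3 (34.5 FPKM). The part of adipocytes or of other cells in the Cdkn2c level was not tested. Cdkn2b, which TGF-beta is known to induce, was at 1.34, 3.49 and 3.62 FPKM in heterozygotes and at 2.83, 2.38 and 4.27 FPKM in wild type. Its groups overlapped, with heterozygote replicate 1 the lowest (log2 fold change -0.16, 95% interval -0.90 to 0.57), and the sign turned without that library or without wild type replicate 3. Cdkn2d was at 8.49, 10.1 and 10.6 FPKM in heterozygotes and at 9.91, 12.0 and 10.2 FPKM in wild type, again with overlap. Cdkn2a, the gene of the senescence-linked inhibitor and of ARF, had 5 reads over all 6 libraries and at most 0.0929 FPKM, which is too few for a comparison. Cdkn3, a phosphatase that acts on Cdks, was not tested because of its low level. It was at 0.425, 0.823 and 0.425 FPKM in heterozygotes and at 0.354, 0.211 and 0.359 FPKM in wild type, so that the heterozygote values were all higher. Its values did not come out as whole reads, so the reads behind them are not given.

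**Figure D4:**
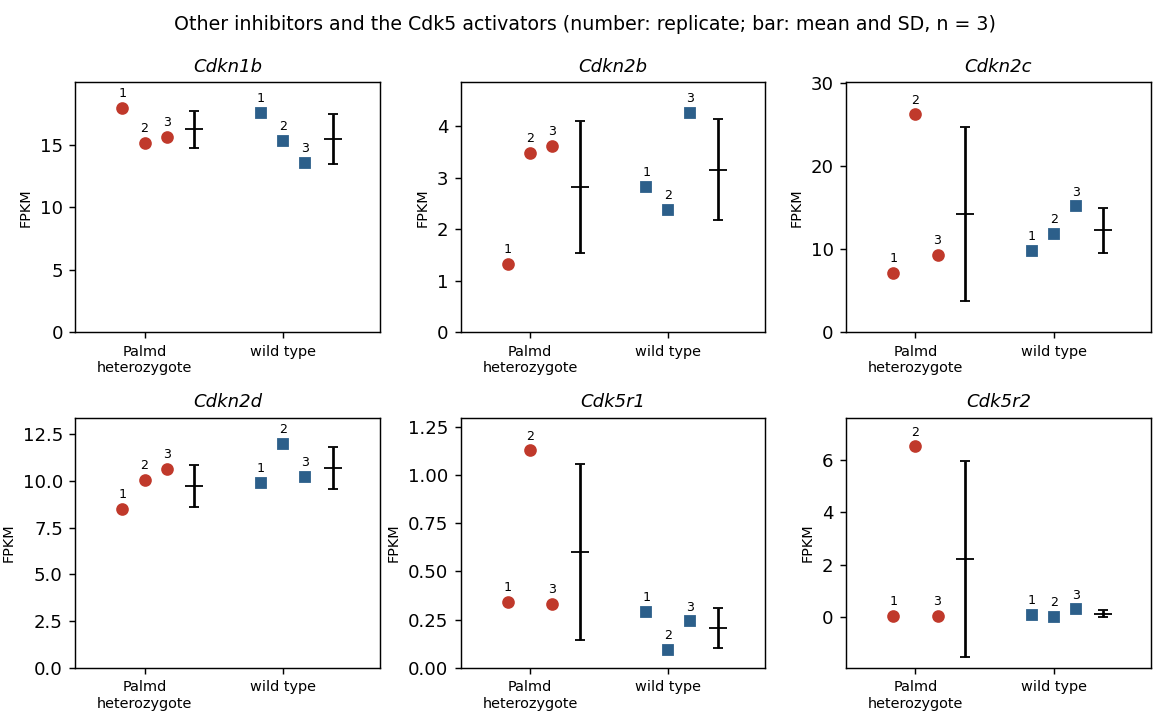
FPKM in each library for the inhibitors Cdkn1b, Cdkn2b, Cdkn2c and Cdkn2d and for the Cdk5 activators Cdk5r1 and Cdk5r2, with replicate numbers and the mean and SD (n = 3). Heterozygote replicate 2 is the highest library for Cdkn2c (26.2 FPKM), Cdk5r1 (1.13 FPKM) and Cdk5r2 (6.53 FPKM).

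Of the 15 cyclins, 9 were tested, and none of these had separate groups, where 12.9% of all genes tested did. The log2 fold changes of the 9 cyclins were positive for 2 and negative for 7, with a median of -0.12 and limma adjusted p of 0.772 to 0.977. All 3 D cyclins were expressed. Ccnd2 was at 26.7, 14.6 and 21.8 FPKM in heterozygotes and at 25.4, 19.7 and 22.1 FPKM in wild type, with overlap. Ccnd3 averaged 12.7 ± 1.83 FPKM in heterozygotes and 13.8 ± 0.611 FPKM in wild type, and Ccnd1 averaged 6.66 ± 0.553 FPKM in heterozygotes and 7.18 ± 0.679 FPKM in wild type (SD, n = 3 each). Ccnd2 thus led the D cyclins in every library, with 46.6% to 55.4% of their sum in heterozygotes and 48.4% to 54.9% in wild type. The 95% intervals of the D cyclin differences ran from -0.66 at the lowest to 0.42 at the highest on the log2 scale, both for Ccnd2. Exons of Ccnd1 share 23.4% of their bases with the antisense gene LTO1, which was at 2.49 FPKM, and reads of overlapping genes cannot be told apart where strand is not kept.

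The G cyclins are atypical cyclins tied to growth arrest. Ccng1, second among the cyclins by its mean over the 6 libraries though below Ccnd2 in heterozygote replicate 1, was at 23.2, 31.1 and 25.7 FPKM in heterozygotes and at 27.6, 27.2 and 32.1 FPKM in wild type, with overlap (log2 fold change -0.12, SE 0.14). Ccng2, which FoxO factors induce, was at 4.71, 4.75 and 5.61 FPKM in heterozygotes and at 6.07, 5.59 and 7.18 FPKM in wild type. The groups met at the level of heterozygote replicate 3 and wild type replicate 2 (log2 fold change -0.27, SE 0.12, and limma adjusted p = 0.772). The most abundant cyclin was Ccnl2, a splicing-linked partner of Cdk11b, at 42.7, 48.5 and 41.7 FPKM in heterozygotes and at 42.7, 41.1 and 43.1 FPKM in wild type. Its relative Ccnl1 averaged 10.2 ± 1.04 FPKM in heterozygotes and 11.4 ± 0.807 FPKM in wild type. Ccnt1 and Ccnt2, the partners of Cdk9 in the elongation factor P-TEFb, had log2 fold changes of 0.05 and -0.05.

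**Figure D5:**
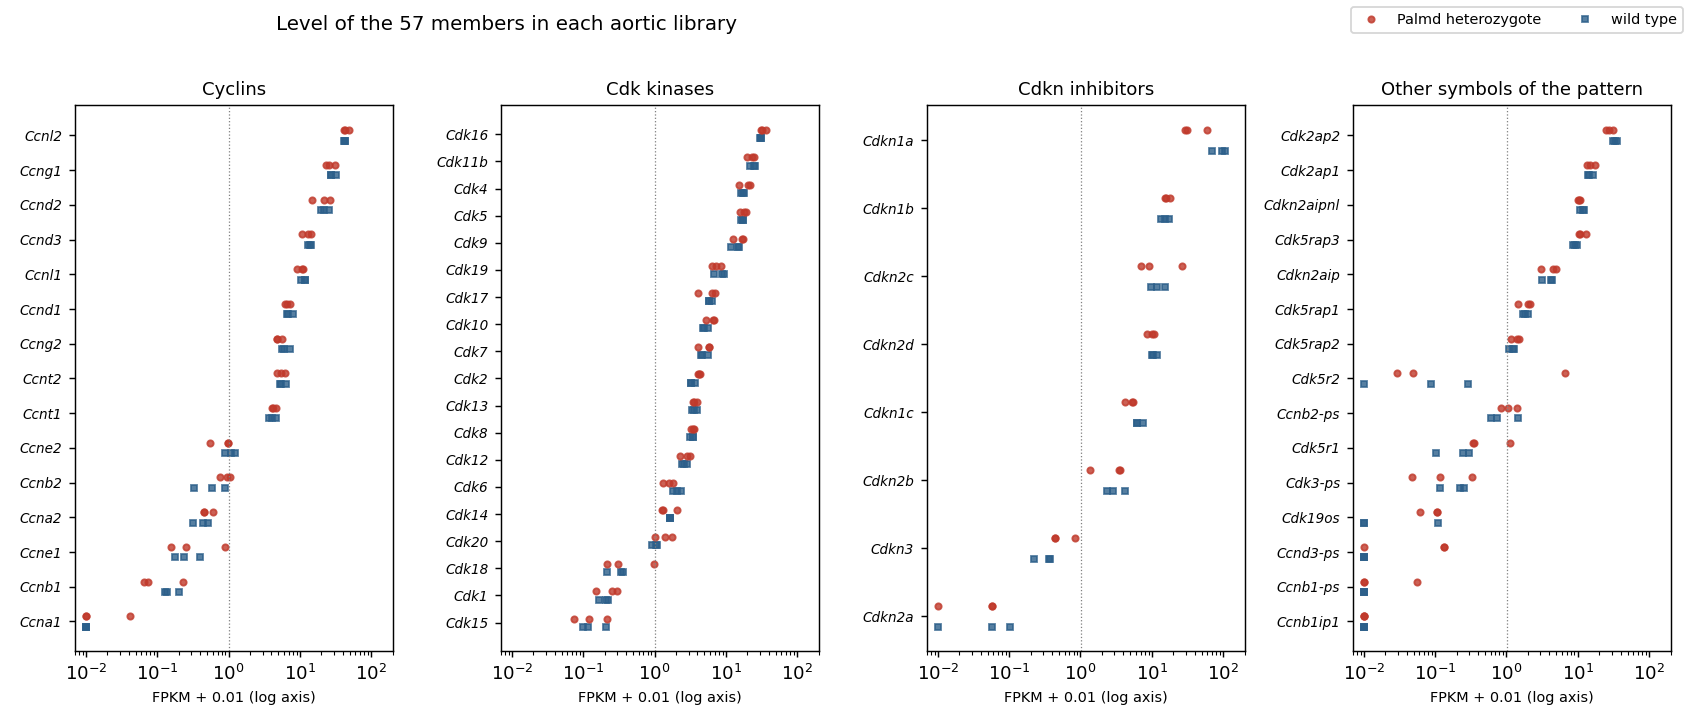
Level of all 57 members in each library, as FPKM + 0.01 on a log axis, by role and ordered by mean, with circles for Palmd heterozygotes and squares for wild type. The dotted line marks 1 FPKM. The D, G, L and T cyclins lie above it, and the A, B and E cyclins, Cdk1 and Cdkn3 lie around or below it.

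The A, B and E cyclins and Cdk1 sat at the low end in both genotypes, while Cdk2, given below, passed the filter. Ccna2, Ccnb1, Ccnb2, Ccne1 and Cdk1 did not pass the filter, with highest values of 0.590, 0.221, 1.04, 0.891 and 0.289 FPKM in any library. Over all 6 libraries together they had 200, 60, 125, 98 and 111 reads. Ccne2 reached 1.22 FPKM and also failed the filter, and Ccna1, a cyclin of the germ line, had 1 read. Ccnb2 was at 0.930, 0.756 and 1.04 FPKM in heterozygotes and at 0.322, 0.889 and 0.580 FPKM in wild type, with overlap, and Cdk1 was at 0.244, 0.141 and 0.289 FPKM in heterozygotes and at 0.155, 0.199 and 0.214 FPKM in wild type. The groups overlapped for all of these genes, and none of them was tested. The proliferation marker Mki67 was likewise low, at 0.287 ± 0.0788 FPKM in heterozygotes and 0.340 ± 0.183 FPKM in wild type (SD, n = 3 each). Of 27 replication and proliferation genes outside the rule, 11 were tested, 0 passed and 0 had an unadjusted p under 0.05, with 6 positive and 5 negative log2 fold changes (median 0.01). The helicase subunit Mcm7 had the smallest p there (log2 fold change 0.18, limma adjusted p = 0.824). It was at 5.13, 5.87 and 5.33 FPKM in heterozygotes and at 4.86, 4.92 and 4.30 FPKM in wild type. Mcm7 was the 1 gene of the 11 with separate groups, where 12.9% of all genes tested had them.

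Promoters of 3 of these low members are printed because they hold TTTGAA, the CHR element known from genes of mitosis, beside CCAAT boxes. They were chosen after their levels and matches were seen. Of the 57 members, 43 had a promoter in the RefSeq table, with 49 promoters between them. A member counts if any of its promoters held the letters, while the shares of all promoters are per promoter, so the 2 are not alike. Counted per promoter, TTTGAA stood in 7 (14.3%) and CCAAT in 24 (49.0%) of the 49. TTTGAA stood in 3 of the 11 genes that were not tested (27.3%) and in 4 of the 32 that were tested (12.5%), against 17.9% of 32851 promoters in all. CCAAT stood in 8 of the 11 (72.7%) and 15 of the 32 (46.9%), against 37.4% of all promoters. The letters of the E2F site, the E-box, the receptor core and the D-box stood in 4.60%, 7.15%, 16.3% and 3.38% of all promoters. They stood in 8.16%, 14.3%, 14.3% and 0.0% of the 49 member promoters, and in 4, 7, 7 and 0 of the 43 members. In the windows printed here no matches overlapped. In Cdk1 the TTTGAA matches begin 71 and 15 bases before the start, and in Ccnb2 they begin 167 bases before and 4 bases after it.
Ccnb2, chr9:70421505-70421804, minus strand: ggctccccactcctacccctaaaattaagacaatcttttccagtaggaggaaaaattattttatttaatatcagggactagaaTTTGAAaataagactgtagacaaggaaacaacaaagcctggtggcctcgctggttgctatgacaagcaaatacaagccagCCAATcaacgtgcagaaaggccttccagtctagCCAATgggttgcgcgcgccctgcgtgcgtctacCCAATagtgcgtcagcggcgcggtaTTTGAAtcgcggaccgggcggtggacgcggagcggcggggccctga
Cdk1, chr10:69352863-69353162, minus strand: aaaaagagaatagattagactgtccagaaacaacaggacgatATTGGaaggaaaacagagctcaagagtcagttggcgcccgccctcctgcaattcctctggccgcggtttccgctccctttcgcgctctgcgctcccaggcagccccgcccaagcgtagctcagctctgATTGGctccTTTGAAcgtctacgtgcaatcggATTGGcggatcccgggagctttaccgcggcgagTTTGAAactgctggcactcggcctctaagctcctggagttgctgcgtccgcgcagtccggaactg
Cdkn3, chr14:46760291-46760590, plus strand: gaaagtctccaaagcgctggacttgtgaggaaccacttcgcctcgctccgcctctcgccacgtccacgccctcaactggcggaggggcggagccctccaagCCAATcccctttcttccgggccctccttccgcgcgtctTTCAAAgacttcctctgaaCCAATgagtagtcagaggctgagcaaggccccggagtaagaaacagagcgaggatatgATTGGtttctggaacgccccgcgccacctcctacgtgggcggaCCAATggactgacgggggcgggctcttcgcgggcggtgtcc

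Of the 19 kinases, 16 were tested, with 11 positive and 5 negative log2 fold changes and a median of 0.05. Cdk2, the kinase of the E and A cyclins, was the 1 of the 16 with separate groups (6.25%, against 12.9% of all genes tested). Cdk2 (chromosome 10, 128697939 to 128705031) was at 4.33, 4.14 and 4.13 FPKM in heterozygotes and at 3.70, 3.26 and 3.25 FPKM in wild type. All heterozygote libraries were higher and lay close together, with a mean of 4.20 ± 0.114 FPKM against 3.40 ± 0.253 FPKM in wild type (SD, n = 3 each). The log2 fold change was 0.24 (SE 0.09, and limma adjusted p = 0.731, exact permutation p = 0.1), and it lay between 0.20 and 0.31 in all 14 alternatives, with no call in any. Its promoter is printed as that of the kinase with separate groups, and it holds CCAAT once as printed and TTCCCGC at 2 places on the strand opposite to the printed one, where it reads as its reverse complement.
Cdk2, chr10:128705002-128705301, minus strand: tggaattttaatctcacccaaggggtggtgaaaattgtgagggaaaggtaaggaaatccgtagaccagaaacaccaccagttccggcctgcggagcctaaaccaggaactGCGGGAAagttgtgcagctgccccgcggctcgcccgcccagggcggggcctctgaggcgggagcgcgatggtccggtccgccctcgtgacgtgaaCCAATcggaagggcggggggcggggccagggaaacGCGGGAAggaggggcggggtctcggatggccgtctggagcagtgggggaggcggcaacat

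The D cyclin partners Cdk4 and Cdk6 were expressed at unequal levels. Cdk4 was at 20.2, 15.3 and 22.1 FPKM in heterozygotes and at 16.5, 18.1 and 17.5 FPKM in wild type, with heterozygote replicate 2 the lowest of all (log2 fold change 0.12, limma adjusted p = 0.943). Exons of Cdk4 share 19.7% of their bases with the antisense gene Tspan31, which was at 27.3 FPKM. Cdk6 was at 1.81, 1.32 and 1.61 FPKM in heterozygotes and at 2.32, 2.09 and 1.79 FPKM in wild type, with a small overlap (log2 fold change -0.25, SE 0.12, and limma adjusted p = 0.807). The share of Cdk6 in the sum of both was 8.24%, 7.93% and 6.80% in heterozygotes and 12.3%, 10.3% and 9.28% in wild type. These shares did not overlap, but the ratio was chosen after the values were seen and was not tested.

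The kinases of transcription differed little. Cdk7, Cdk8, Cdk9, Cdk11b, Cdk12, Cdk13 and Cdk19 had log2 fold changes between -0.15 and 0.13 and limma adjusted p of 0.927 or above. None of these 7 had separate groups, where 12.9% of all genes tested did. Cdk8, a kinase of the Mediator complex, averaged 3.42 ± 0.194 FPKM in heterozygotes and 3.37 ± 0.171 FPKM in wild type (SD, n = 3 each). Cdk13, which phosphorylates the tail of RNA polymerase II, averaged 3.66 ± 0.277 FPKM in heterozygotes and 3.61 ± 0.310 FPKM in wild type. Cdk11b, the second most abundant kinase, was at 24.9, 19.9 and 23.5 FPKM in heterozygotes and at 25.8, 25.1 and 21.9 FPKM in wild type. Their outside regulators gave 0 calls as well. Of 14 regulators of P-TEFb, all tested, 9 had positive and 5 negative log2 fold changes with a median of 0.06. Mepce, which caps and stabilises 7SK RNA, had the smallest p, at 16.4, 12.3 and 14.3 FPKM in heterozygotes and at 12.6, 11.1 and 9.13 FPKM in wild type, with overlap (log2 fold change 0.36, limma adjusted p = 0.770). The P-TEFb inhibitor Hexim1, with the next smallest, was at 24.7, 28.3 and 22.2 FPKM in heterozygotes and at 21.8, 20.8 and 19.0 FPKM in wild type, with separate groups (log2 fold change 0.27, limma adjusted p = 0.774). The 7 tested genes of the Mediator kinase module and the general transcription kinases had a median of -0.0007.

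The most abundant kinase was Cdk16, a kinase that cyclin Y activates, at 31.1, 37.0 and 31.9 FPKM in heterozygotes and at 31.2, 30.2 and 31.6 FPKM in wild type, with overlap. Cdk10 was at 6.92, 5.30 and 6.65 FPKM in heterozygotes and at 5.67, 4.83 and 4.89 FPKM in wild type, where heterozygote replicate 2 fell among the wild-type values (log2 fold change 0.25, SE 0.12, and limma adjusted p = 0.807). Cdk20 was at 1.01, 1.39 and 1.74 FPKM in heterozygotes and at 1.03, 0.924 and 1.09 FPKM in wild type. Cdk14 and Cdk17 had log2 fold changes of -0.06 each, and heterozygote replicate 2 was the highest library for Cdk14 (2.09 FPKM) and the lowest for Cdk17 (4.10 FPKM). Cdk15 and Cdk18 were below the filter, at most 0.208 and 0.959 FPKM.

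Cdk5, a kinase known best from neurons, differed little across the aortas, with 17.8 ± 1.59 FPKM in heterozygotes and 17.0 ± 0.549 FPKM in wild type (SD, n = 3 each). Its activators Cdk5r1 and Cdk5r2 varied more between libraries, failed the filter and were not tested. Cdk5r2 was at 0.0196, 6.53 and 0.0391 FPKM in heterozygotes and at 0.0782, 0 and 0.278 FPKM in wild type, so that nearly all of its 337 reads lay in heterozygote replicate 2. Cdk5r1 was also highest there, at 0.342, 1.13 and 0.329 FPKM in heterozygotes against 0.289, 0.0915 and 0.240 FPKM in wild type. It had 179 reads in all and no overlap, with heterozygote replicate 3 close to wild type replicate 1. Because both activators were highest in heterozygote replicate 2, 10 neuron markers were added after the values were seen. These markers summed to 6.78, 457 and 9.25 FPKM in heterozygotes and to 9.59, 7.37 and 34.5 FPKM in wild type. Among them Th, the enzyme that starts catecholamine synthesis, was at 66.7 FPKM in heterozygote replicate 2 and at 3.81 FPKM in wild type replicate 3, the libraries with the highest and the next highest Cdk5r2. In the other libraries Th was at most 0.324 FPKM. The part of neurons in the levels of both activators was not tested.

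Of the 15 other symbols, 8 were tested and 3 had separate groups (37.5%, against 12.9% of all genes tested). Cdk5rap3, a component of the protein UFMylation machinery, was at 10.7, 10.6 and 13.1 FPKM in heterozygotes and at 9.06, 9.64 and 8.57 FPKM in wild type, all higher (log2 fold change 0.30, SE 0.11, and limma adjusted p = 0.744, exact permutation p = 0.1). Cdk2ap2 was at 24.6, 27.7 and 31.3 FPKM in heterozygotes and at 31.7, 35.8 and 33.0 FPKM in wild type, all lower by a narrow gap (log2 fold change -0.26, SE 0.12, and limma adjusted p = 0.798). Cdkn2aipnl was at 10.3, 10.6 and 10.2 FPKM in heterozygotes and at 11.9, 12.1 and 10.6 FPKM in wild type, where the closest libraries of both groups were at 10.6 FPKM (log2 fold change -0.14, SE 0.09, and limma adjusted p = 0.865). Cdk2ap1, a partner of Cdk2 and of a chromatin remodelling complex, was at 13.6, 17.4 and 14.9 FPKM in heterozygotes and at 14.1, 14.3 and 16.2 FPKM in wild type. Cdk5rap2, which acts at the centrosome, and Cdkn2aip had log2 fold changes of 0.10 and 0.08, and Cdk5rap1 averaged 1.85 FPKM in heterozygotes and 1.84 FPKM in wild type. The pseudogenes Ccnb1-ps, Ccnb2-ps, Ccnd3-ps and Cdk3-ps and the antisense RNA Cdk19os may share reads with their parent or host genes, and their values are uncertain. Among them Ccnb2-ps was tested (log2 fold change 0.13), and the others were at most 0.318 FPKM. Ccnb1ip1, a gene of meiotic recombination, was listed at 0 in every library.

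The genes that act around the members, counted from lists, likewise gave 0 calls over 93 genes tested in 7 lists, and 2 of the 93 had an unadjusted p under 0.05 (2.15%, against 6.5% of all genes tested). Both belong to the phosphatases, kinases and ubiquitin ligases that control Cdks. Cdc25b, a phosphatase that activates Cdks before mitosis, was at 9.90, 8.07 and 7.46 FPKM in heterozygotes and at 5.52, 5.50 and 5.20 FPKM in wild type, all higher (log2 fold change 0.56, SE 0.12, and limma adjusted p = 0.548). The stress-responsive kinase Plk3 was at 4.83, 2.51 and 3.31 FPKM in heterozygotes and at 5.88, 5.83 and 5.05 FPKM in wild type, all lower (log2 fold change -0.56, SE 0.19, and limma adjusted p = 0.689). Of that list 15 of 22 genes were tested, with 8 positive and 7 negative log2 fold changes and a median of 0.09. Among the pocket proteins, E2F and DP factors and the DREAM complex, 14 of 21 were tested, with 4 positive and 10 negative log2 fold changes and a median of -0.02. The summed level of the 21 genes was 90.6 to 99.6 FPKM in heterozygotes and 100.6 to 102.9 FPKM in wild type, the 1 list of the 7 whose sums did not overlap. The gap was narrow, between heterozygote replicate 1 and wild type replicate 2. Of all single genes tested 12.9% had separate groups, and no such share is given here for sums. The separation is therefore not read as a result about this list. The E2F partners Tfdp1 and Tfdp2 had separate groups in opposite directions (log2 fold changes -0.24 and 0.21, limma adjusted p = 0.798 and 0.805). Tfdp1 was at 12.8, 11.4 and 13.50 FPKM in heterozygotes and at 13.51, 15.2 and 16.3 FPKM in wild type, so that its groups all but met. Tfdp2 was at 2.71, 2.49 and 2.35 FPKM in heterozygotes and at 2.27, 1.97 and 1.92 FPKM in wild type. Of the cyclins, Cdk-like kinases and partners outside the symbol rule, 14 of 20 found were tested, with 5 positive and 9 negative log2 fold changes and a median of -0.09, and Ccny, the partner of Cdk16, was at 25.2, 20.0 and 20.6 FPKM in heterozygotes and at 26.2, 24.6 and 25.9 FPKM in wild type.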

How the data were processed

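Poly(A)-selected RNA of 6 aortic libraries had been sequenced, per the labels' protocols. GRCm38 and the tools TopHat2, Bowtie2 2.2.3 and HISAT2 2.1.0 are listed without roles, per the submitters' processing notes. No counting tool or strand setting is given in the sources used here. The deposited values were read as FPKM that the authors calculated, since value times exon length (GENCODE M21) was a whole number of reads, within 0.01, for 94.8% to 95.2% of genes with few reads; for Cdkn1a, Cdkn2b and Cdkn3 it was not. Groups and replicate numbers come from the titles; headers inside the heterozygote files number them differently.

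Genes with at least 1 FPKM in 3 libraries were tested with limma 3.58.1 (mean-variance trend, R 4.3.3) on log2(FPKM + 1), which understates changes of low genes, and adjusted over all 12620 genes, threshold 0.05. Single values were compared by exact permutation (scipy 1.17.1). The procedure was tested on simulated data with equal spread in every library, unlike these data, where heterozygote replicate 2 stood apart. There it recovered 71.2% of 2-fold and 96.4% of 4-fold changes of FPKM + 1, with a mean of 14.6 false calls per run. Every INK4 or CIP/KIP inhibitor, the 2 most abundant members per role, and tested members with an unadjusted p under 0.05 or separate groups were described in full; other genes were named by smallest p, and Cdk1, Ccnb2, Cdkn3, Cdk5r1, Nr1d1, Mki67, Trp53, Mdm2 and further members after their values were seen. Members and lists were chosen with earlier results of these data known. Alternatives were another pseudocount (0.1, 0.5), no filter, quantile normalization, a replicate block, leaving out each library, an adipocyte covariate, array weights and voom on recovered reads.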

Additional observations from a re-analysis of the deposited data

How the results depend on the processing

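No member was called under 13 of 14 alternatives; with array quality weights 1 was (Cdkn1c). The number of members with an unadjusted p under 0.05 was 4, and 11 with array weights. Leaving out a library gave 1 to 7 (7 without heterozygote replicate 2, 1 without wild type replicate 2, 2 without wild type replicate 3). In the main fit 6.5% of all genes tested had such a p and 0.0% were called. These shares are not given for the alternatives, so the counts there cannot be read as a result about the members. The number with separate groups was 6, and 7 to 15 with a library left out, where fewer libraries separate more often by construction: 15 without heterozygote replicate 2, 11 without heterozygote replicate 1 and 10 without wild type replicate 3, against 33.1%, 25.7% and 18.5% of all genes.

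Of the 15 tested members described in full, 10 kept their direction under every alternative. Cdkn2c, at 0.0060, turned to -0.0064 and -0.00047 with pseudocounts of 0.1 and 0.5, -0.35 with array weights and -0.014 with voom, and ranged from -0.52 to 0.35 with a library left out. Cdkn2b turned to 0.14 with array weights and ranged from -0.34 to 0.16 with a library left out. Ccnl2, Cdkn1b and Cdk2ap1 turned sign near 0 when a library was left out (-0.0019 to 0.104, -0.0167 to 0.158 and -0.0567 to 0.108). The cause was not tested.

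Deviations from the group means correlated at 0.508, -0.0877 and -0.342 between same-numbered libraries. The highest value of any pair was 0.551, for heterozygote replicate 2 and wild type replicate 3. With 3 libraries per group these values cannot show whether the numbers pair the libraries. With the replicate block 0 members were called and 3 had an unadjusted p under 0.05. Genes with a few reads limit the low members.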
